A study of Mus musculus with 39 samples.

Results

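The 10 T cell richest and the 10 T cell poorest tumours of a series of 39 mouse melanomas are compared here, whatever treatment the animals had received. Each library was given a T cell score, the mean of log2(CPM + 1) over Cd3e, Cd3d, Cd3g, Cd2 and Cd8a, where CPM is the count scaled by the total of the library. The 39 libraries were ranked by that score, ranks 1 to 10 form the T cell rich set, ranks 30 to 39 the T cell poor set, and 19 libraries lie between. Because the 5 ranking genes chose the members, their levels are no finding and are given only as the score. The score was 4.44 at rank 10 and 4.41 at rank 11, and it was 3.49 at rank 29 and 3.48 at rank 30, so both borders cut through a continuous series.

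All tumours grew in C57BL/6 mice from injected Braf-mutated melanoma cells, and treatment began at day 7 after injection. Mice received the combination of anti-PD-1 and EPAT, anti-PD-1 alone at 200 µg per dose, EPAT alone at 30 mg per kg, or vehicle (a DMSO and PEG solvent), for 2 or 5 days, with 5 libraries in each group and 4 for anti-PD-1 at day 2. PD-1 restrains activated T cells, and the antibody prevents this. EPAT blocks EP2 and EP4, receptors of the inflammatory lipid prostaglandin E2. For RNA extraction the labels give day 4, in conflict with both time points. Whether each library is a separate animal is not labelled, so a p-value here reflects the spread among these libraries, which may be technical.

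T cells enter a tumour from blood through activated endothelium, following chemokines that bind CXCR3 and CXCR6, and are held in place by antigen shown on MHC molecules of dendritic cells and macrophages. Activated CD8 T cells kill with perforin and granzymes and release interferon-gamma, which raises chemokine, MHC and PD-L1 expression in the cells around them. Prostaglandin E2, acting through EP2 and EP4, dampens the functions of T cells, natural killer (NK) cells and dendritic cells. In bulk RNA a lower level of a gene can come from fewer cells of a type or from less RNA per cell, and these cannot be told apart.

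The T cell rich set held 3 combination tumours of day 5, 2 anti-PD-1 tumours of day 5, 2 EPAT tumours of day 5 and 1 vehicle tumour of day 5, with 1 combination and 1 EPAT tumour of day 2. The T cell poor set held 3 vehicle, 2 combination and 1 anti-PD-1 tumour of day 2, with 2 vehicle, 1 anti-PD-1 and 1 EPAT tumour of day 5. Tumours given EPAT, alone or in combination, were 7 of 10 in the T cell rich set and 3 of 10 in the T cell poor set (2-sided Fisher's exact test, p = 0.179, adjusted over 3 label splits 0.268). Day 5 tumours were 8 of 10 in the rich set against 4 of 10 in the poor set (exact p = 0.170, adjusted 0.268), and tumours given anti-PD-1 were 6 of 10 against 4 of 10 (exact p = 0.656, adjusted 0.656). None of these 3 splits passed the threshold of 0.05. The titles of 3 libraries begin like those of the same treatment at the other day, although their labelled time point was used throughout. EPAT day 5 replicate 1 of the rich set is among them, and the others, EPAT day 2 replicate 5 and anti-PD-1 day 5 replicate 5, are in neither set. Without EPAT day 5 replicate 1, day 5 tumours were 7 of 9 in the rich set against 4 of 10 in the poor set (exact p = 0.170). The rich set ran from a score of 5.98 in anti-PD-1 day 5 replicate 4 to 4.44 in EPAT day 2 replicate 2, with a median of 4.80. The poor set ran from 3.48 in vehicle day 5 replicate 5 to 1.12 in combination day 2 replicate 2, with a median of 3.22, and the next lowest was vehicle day 2 replicate 2 at 2.60.

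**Figure D1:**
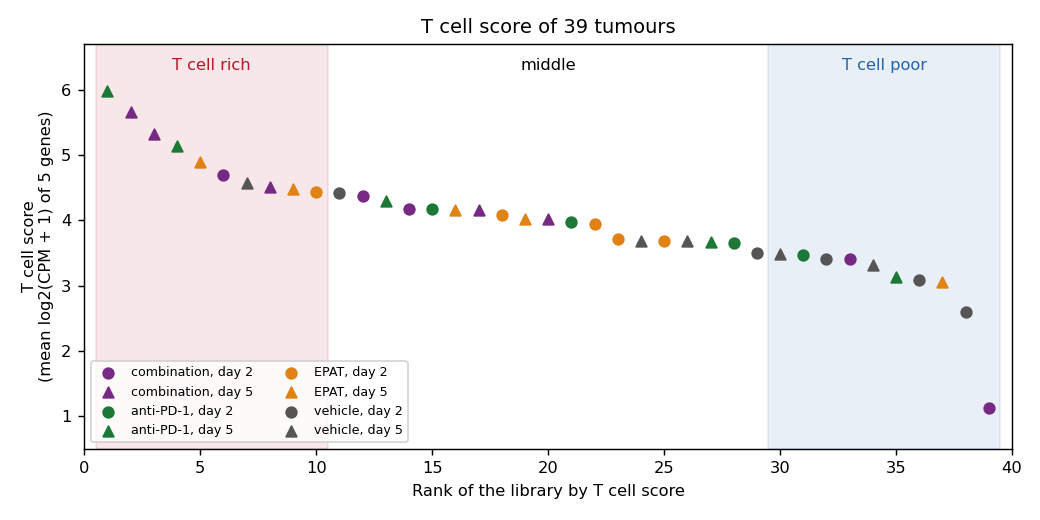
T cell score (mean log2(CPM + 1) of 5 genes, y axis) of each of the 39 tumours by rank (x axis), coloured by treatment, with circles for day 2 and triangles for day 5. The shaded T cell rich set spans 4.44 to 5.98 and the shaded T cell poor set spans 1.12 to 3.48; tumours of every treatment occur in both.

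Several features that are not T cell genes moved with the ranking. Skeletal muscle fibre genes had list scores (mean log2(CPM + 1) of the list) of 3.74, 5.12 and 9.44 as lowest, median and highest in T cell rich tumours, against 0.609, 3.90 and 6.49 in T cell poor tumours. Transcripts of lung epithelium (Sftpc, Sftpa1 and Scgb1a1), which a melanoma lacks, summed to at least 50.9 CPM in 23 of the 39 libraries and to at most 1.18 CPM in the other 16. They were present in 4 of 10 T cell rich and 7 of 10 T cell poor libraries. The share of counts from mitochondrially encoded genes was 5.31%, 6.71% and 9.13% (lowest, median, highest) in rich libraries and 4.00%, 8.90% and 11.7% in poor ones. Gm42418, which overlaps a ribosomal RNA repeat, took 2.53%, 3.44% and 8.59% of counts in rich libraries and 1.90%, 5.27% and 12.9% in poor ones. Between 17285 and 18653 genes had a count in rich libraries and between 16566 and 19294 in poor ones, with 9 of 10 rich libraries above the poor median. Total counts were 9177143 to 14893401 in the rich set and 8385741 to 15558113 in the poor set. Keratinocyte list scores had medians of 0.423 in rich and 0.459 in poor tumours. In each set 1 library stood far higher, combination day 5 replicate 3 at 2.71 and vehicle day 2 replicate 2 at 3.27. The next poor library was vehicle day 2 replicate 5 at 1.17. Of 12 keratinocyte genes 2 were measured, and Krt10 fell by 1.13 ± 0.42 (SE; edgeR adjusted p = 0.0452), a call lost on leaving out any of 12 libraries (all but combination day 2 replicates 1, 2 and 3, EPAT day 5 replicates 3 and 5, EPAT day 2 replicate 2, vehicle day 5 replicate 1 and anti-PD-1 day 5 replicate 2), with a value of -0.55 (adjusted p = 0.189) without vehicle day 2 replicate 2. The part of these features in the results below was not tested beyond the values given beside them.

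The label of the sets held for T cell genes that the ranking did not use. Of 24 further genes of the T cell receptor and its signalling, 22 were measured and all 22 were higher in T cell rich tumours, with a median log2 fold change of 1.60. They belong to the same cells as the ranking genes, so no test is given for them. Lck, the kinase that starts T cell receptor signalling, ran from 24.97 to 74.8 CPM with a median of 41.6 CPM in rich tumours, against 1.93 to 22.2 CPM with a median of 13.96 CPM in poor tumours. Cd8b1, the partner chain of Cd8a, had a median of 34.96 CPM in rich and 11.04 CPM in poor tumours. Cd4, the co-receptor of helper T cells, had 2.78, 6.22 and 10.96 CPM as lowest, median and highest in rich tumours and 0.513, 1.99 and 4.61 CPM in poor ones. Across this list the sets did not overlap for Lck, Cd8b1, Zap70, Lat, Cd6, Cd27, Bcl11b, Themis and Lcp2, which makes 9 of 22 genes. Trac, the constant region of the T cell receptor alpha chain, was near 0 in every library at a highest value of 0.629 CPM in rich and 0.102 CPM in poor tumours, and it did not pass the count filter.

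Across the genome the sets differed widely. Of 13707 genes tested with edgeR's quasi-likelihood test, 4169 passed an adjusted p of 0.05, which is 30.4% of them. The 2437 genes higher in T cell rich tumours are 17.8% and the 1732 lower genes are 12.6%. Every rich library lay above every poor library for 129 genes (0.941%) and below it for 17 genes (0.124%). A gene list is read below against these shares and against the median log2 fold change of all genes, -0.03. With treatment and day in the model 2284 genes passed, with the skeletal muscle score in it 1701 did, and within the 11 libraries that carried lung transcripts 1537 did. Among the 6 rich and 3 poor libraries without lung transcripts 3 genes passed (1618 higher and 952 lower genes had an unadjusted p under 0.05). These were Ltbp2, Sfrp1 and Srpx2, which encode secreted proteins and were higher in rich tumours by 3.58, 3.53 and 1.82 log2 units. Day 5 libraries alone, 8 rich and 4 poor, gave 3292 genes, a count within 1.5 times that of all 20. They kept 2630 of the 4169 calls (63.1%).

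The 10 genes with the smallest p, outside the ranking genes and the T cell receptor list, were Ptpn6, Tmem229b, Myo1f, Clec12a, Syt11, Plek, Snx20, Arhgap9, Fgr and Rac2. All 10 were higher in T cell rich tumours, by 1.03 to 1.64 log2 units, each with an adjusted p of 5.28e-05. Ptpn6 encodes SHP-1, a phosphatase that restrains signalling in most white blood cells, and it lies on chromosome 6 at 124720707 to 124738714 of GRCm38 on the minus strand. Its level was 185, 239 and 383 CPM as lowest, median and highest in T cell rich tumours, against 51.9, 96.4 and 138 CPM in T cell poor tumours, a log2 fold change of 1.40 ± 0.15 (SE). Every rich tumour exceeded every poor one. Clec12a, an inhibitory lectin of myeloid cells, had a median of 78.9 CPM in rich and 28.5 CPM in poor tumours (1.64 ± 0.20). Rac2, the small GTPase of blood cells that drives their movement, had 175 against 60.6 CPM (1.61 ± 0.20). Myo1f, a motor protein of immune cells, Plek, a substrate of protein kinase C in platelets and leukocytes, and Arhgap9, a regulator of small GTPases, did not overlap between the sets either. Fgr, a Src family kinase of myeloid cells, overlapped in 1 rich library. Genes of white blood cells at large, such as Ptpn6 and Rac2, are expressed by T cells too, so their rise is not independent of the ranking.

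Among genes of this group the promoter of Ptpn6 is shown because it held a match to the core sequence that ETS factors bind, the family of the blood cell factor PU.1. Of the 10 genes 7 have a promoter in the RefSeq table used, with 8 promoters in all. The letters AGGAAGT, on either strand and with at least 1 match counted, were found in the 250 bases before the start of 1 of the 8, and in 7.69% of all 32851 promoters of the table. The sequence is from GRCm38.p6, chr6:124738710-124738959, minus strand, 5′ to 3′, with the match, here on the opposite strand, in capitals.
Ptpn6: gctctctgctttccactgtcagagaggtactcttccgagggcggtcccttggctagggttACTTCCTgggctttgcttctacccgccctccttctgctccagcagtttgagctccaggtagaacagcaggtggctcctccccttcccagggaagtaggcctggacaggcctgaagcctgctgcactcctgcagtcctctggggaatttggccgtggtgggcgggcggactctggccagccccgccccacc

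Cytotoxic effector genes were higher in T cell rich tumours as a list, although Gzmb and Ifng did not pass. All 19 measured genes of 20 had a positive fold change, with a median of 1.43, and 13 rose. Most are expressed by T cells themselves, so their rise is not independent of the ranking. Tbx21, which encodes the type 1 master factor T-bet, had 11.3, 17.2 and 28.1 CPM as lowest, median and highest in rich tumours and 0.601, 4.59 and 8.26 CPM in poor tumours. The sets did not overlap for Tbx21 (2.08 ± 0.30, adjusted p = 0.000114). Nkg7, a cytotoxic granule protein, did not overlap either, with medians of 81.8 CPM in rich and 24.5 CPM in poor tumours (1.92 ± 0.32, adjusted p = 0.000327). Prf1, the pore-forming perforin, had medians of 13.04 CPM in rich and 4.33 CPM in poor tumours (1.41 ± 0.27, adjusted p = 0.000764), and rich tumours exceeded the highest poor tumour in 7 of 10. Gzmk, a granzyme of memory-like CD8 T cells, showed the widest fold of the list at 2.84 ± 0.48 (adjusted p = 0.000375) from a low level, 2.46, 4.28 and 18.2 CPM in rich against 0, 0.915 and 2.05 CPM in poor tumours. Gzmk could pass the count filter through the rich set alone, so its place in the list carries little.

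Gzmb and Ifng did not pass with all 20 libraries. Gzmb, the main granzyme of killer cells, had 8.83, 43.5 and 71.0 CPM in T cell rich tumours and 3.12, 22.8 and 74.7 CPM in T cell poor tumours (0.80 ± 0.40, adjusted p = 0.131), so the highest value of all was in a poor tumour. Ifng, which encodes interferon-gamma, had 4.17, 7.28 and 18.9 CPM in rich and 0, 3.23 and 14.3 CPM in poor tumours (1.17 ± 0.48, adjusted p = 0.0671). The T cell poor library, combination day 2 replicate 3, decided both: without it Gzmb was at 1.13 (adjusted p = 0.0262) and Ifng at 1.68 (adjusted p = 0.00681). Ifng also passed without combination day 2 replicate 2, at 1.04 (adjusted p = 0.0458).

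Checkpoint receptors were higher with T cell content. Of 13 measured genes of the checkpoint and exhaustion list, 10 rose and none fell, with a median of 1.00. Many of these genes, and the regulatory T cell genes below, are expressed by T cells themselves, so their rise is not independent of the ranking. Pdcd1, which encodes PD-1 itself, the target of the antibody, had 6.26, 16.8 and 42.0 CPM in T cell rich tumours and 1.10, 5.33 and 8.44 CPM in T cell poor tumours (1.70 ± 0.31, adjusted p = 0.000588). Btla, another inhibitory receptor of lymphocytes, was at 1.49 ± 0.24 (adjusted p = 0.000271). Entpd1, the ectoenzyme CD39 that marks exhausted and regulatory T cells and also endothelium, was at 0.90 ± 0.16 (adjusted p = 0.000542). Of 8 measured regulatory T cell genes, 4 rose, and 1 passed with the muscle score in the model. Foxp3, the lineage factor of regulatory T cells, had medians of 4.00 CPM in rich and 1.66 CPM in poor tumours (1.21 ± 0.30, adjusted p = 0.00551). Il2ra, the high-affinity chain of the interleukin 2 receptor, had medians of 17.5 and 8.73 CPM in rich and poor tumours (1.02 ± 0.26, adjusted p = 0.00607).

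NK cell receptors gave a mixed picture. Of 15 measured genes 6 rose and 1 fell, and 14 had a positive fold change. The muscle score in the model reduced these 7 calls to 4. The 3 genes with the smallest p, Klrc1, Klrc2 and Cd160, encode receptors that activated CD8 T cells also carry, and they rose by 1.80 ± 0.30, 1.54 ± 0.27 and 1.69 ± 0.31 (adjusted p = 0.000331, 0.000446 and 0.000675). Klrc1 and Klrc2 are close copies, so the split of reads between them is uncertain. Ncr1, the receptor NKp46 that defines NK cells, was at 0.16 and Klrb1c, which encodes NK1.1, at 0.57, and neither passed. Klra4, an inhibitory Ly49 receptor of a family of close copies, was at -0.74 (adjusted p = 0.0352), a call lost on leaving out any of 8 libraries (EPAT day 5 replicates 1 and 3, anti-PD-1 day 5 replicates 2 and 3, combination day 5 replicates 1 and 3, vehicle day 2 replicate 2 or vehicle day 5 replicate 3).

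Interferon response genes differed less between the sets than T cell genes did, a contrast that ranking on T cell genes favours. Of 22 measured interferon-gamma response genes, 21 had a positive fold change, with a median of 0.44, but 5 rose, which is 5 of 22 against the 17.8% of all genes. The count was 2 with treatment and day and 3 with the muscle score in the model. It was 16 within the libraries with lung transcripts and 0 within those without. Irf8, Ciita, Gbp8 and Psmb8 were among the 5. Ciita, the master switch of MHC class II genes, had 7.93, 15.1 and 29.46 CPM in T cell rich tumours and 2.17, 8.71 and 13.1 CPM in T cell poor tumours (1.22 ± 0.29, adjusted p = 0.00432). Irf8, an interferon-induced factor that dendritic cells and monocytes need, had medians of 274 CPM in rich and 149 CPM in poor tumours (0.97 ± 0.19, adjusted p = 0.000925). Cxcl9, the interferon-gamma-induced chemokine that draws CXCR3-bearing T cells, had 248, 598 and 1182 CPM in rich tumours against 37.98, 336 and 1222 CPM in poor ones (0.54 ± 0.37, adjusted p = 0.273). Cd274, which encodes the PD-1 ligand PD-L1, had 49.3, 68.9 and 119 CPM in rich and 11.1, 32.1 and 221 CPM in poor tumours (0.62 ± 0.41, adjusted p = 0.254).

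The T cell poor tumour combination day 2 replicate 3 set these interferon values. Its interferon-gamma list score was 7.44, against a median of 5.75 over the poor set and a highest rich score of 6.86. Without it 15 of the 22 genes rose, with a median of 0.75, Cxcl9 was at 0.89 (adjusted p = 0.0400) and Cd274 at 1.31 (adjusted p = 0.00123). The count was 3 without any of 12 other libraries, all but combination day 5 replicates 1 and 4, combination day 2 replicates 1 and 2, EPAT day 5 replicates 1 and 5, and anti-PD-1 day 2 replicate 2. The median of the list was 0.96 within the 11 libraries that carried lung transcripts and -0.16 within the 9 that did not. Combination day 2 replicate 3 is among the 3 T cell poor libraries without them, and its part in this difference was not tested.

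Type I interferon response genes and MHC class I genes behaved in the same way. Of 24 type I interferon genes 9 rose, with a median of 0.53, and 18 rose without combination day 2 replicate 3. With treatment and day in the model 1 passed, and with the muscle score 4 did. Within the libraries with lung transcripts 15 passed, and 0 did within those without. The count of 9 became 5 without anti-PD-1 day 5 replicate 4, combination day 5 replicate 3, combination day 5 replicate 4 or vehicle day 2 replicate 2. Of 16 genes of MHC class I presentation 3 rose (median 0.33), near the 17.8% of all genes that rose. Without combination day 2 replicate 3, 10 did, and 1 did with treatment and day or with the muscle score in the model. Within the libraries with lung transcripts 7 did, and 0 did within those without. The 3 called with all 20 libraries were H2-Q7 and H2-Q6, which are close copies whose reads may be split, and Tap1, the peptide transporter. Tap1 had 139, 186 and 243 CPM in T cell rich tumours and 56.3, 99.4 and 308 CPM in T cell poor tumours (0.70 ± 0.22, adjusted p = 0.0223), the highest value again being that of combination day 2 replicate 3. H2-Q6 lost its call on leaving out any of 9 libraries (anti-PD-1 day 5 replicates 2, 3 and 4, combination day 5 replicates 3 and 4, EPAT day 5 replicate 3, and vehicle day 2 replicates 2, 4 and 5).

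MHC class II genes and the chemokine receptors of T cells separated the sets more firmly. Of 11 measured genes of MHC class II presentation 9 rose, with a median of 1.17. Ctss, the protease that trims the invariant chain, had 1364, 1889 and 2622 CPM in T cell rich tumours and 770, 1004 and 1364 CPM in T cell poor tumours (0.91 ± 0.14, adjusted p = 0.000143). H2-Eb1, the beta chain of the I-E molecule in strains that express it, had medians of 975 CPM in rich and 428 CPM in poor tumours (1.17 ± 0.20, adjusted p = 0.000384). Of 13 genes of T cell recruitment 8 rose. Cxcl16, the membrane-bound chemokine of macrophages and dendritic cells, had 171, 214 and 274 CPM in rich against 56.8, 118 and 163 CPM in poor tumours, without overlap (0.87 ± 0.14, adjusted p = 0.000190). Its receptor Cxcr6, carried by tissue-resident T cells, was at 2.26 ± 0.36 (adjusted p = 0.000243). Because T cells carry Cxcr6, its rise is not independent of the ranking. The interferon-induced ligands of CXCR3 in the list, Cxcl9, Cxcl10 and Cxcl11, did not pass, at 0.54, 0.47 and 0.68.

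**Figure D2:**
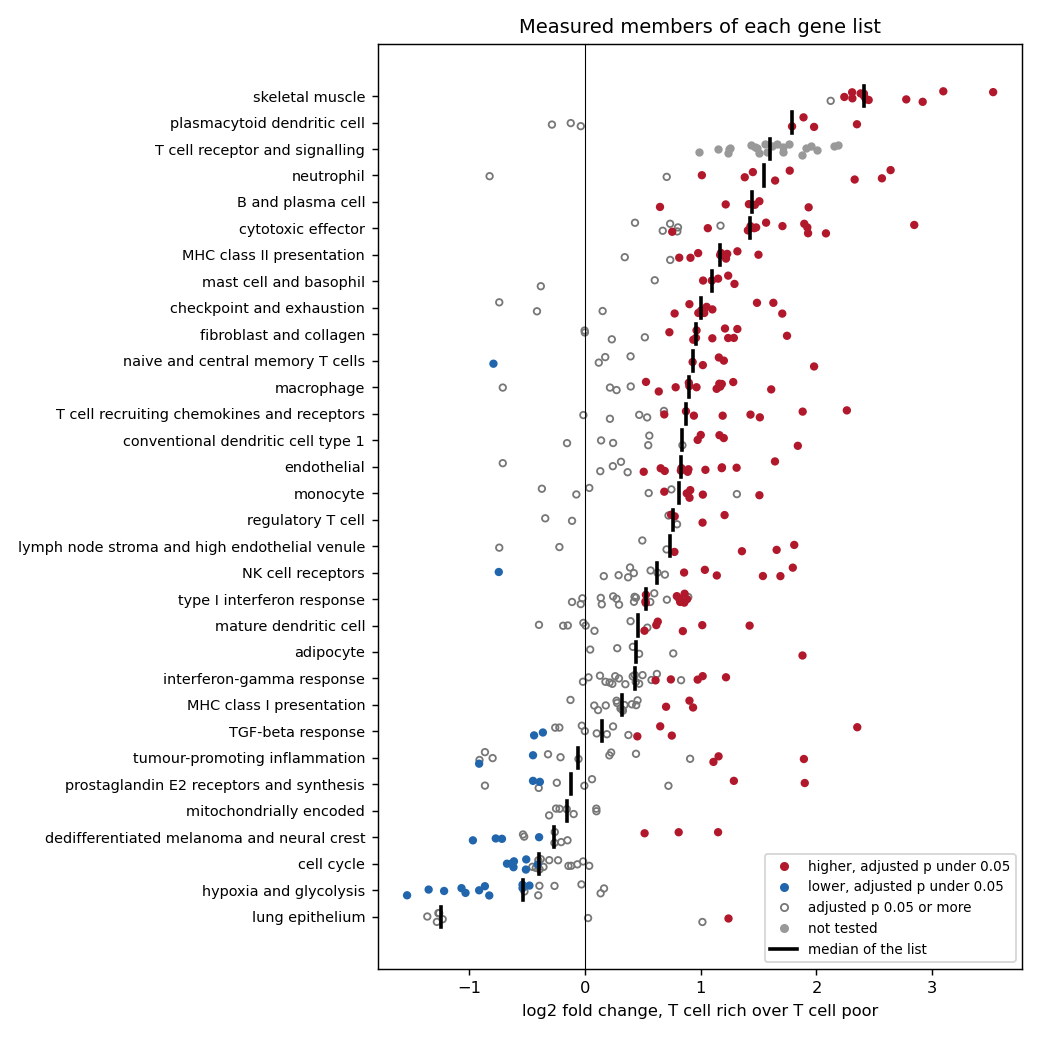
Log2 fold change of each measured gene (points, x axis) in T cell rich over T cell poor tumours, by gene list (y axis, lists with at least 6 measured genes), with the list median as a black bar. Filled red and blue points passed an adjusted p of 0.05, open points did not, and grey points were not tested; skeletal muscle has the highest median at 2.41, and the hypoxia and cell cycle lists lie below 0 at -0.54 and -0.39.

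Dendritic cell genes followed. Of 11 measured genes of conventional type 1 dendritic cells, which cross-present antigen to CD8 T cells, 5 rose (median 0.84). Xcr1, the receptor that defines them, had 2.23, 7.65 and 17.4 CPM in T cell rich tumours and 0.120, 1.65 and 7.54 CPM in T cell poor tumours (1.84 ± 0.47, adjusted p = 0.00660). Batf3, the factor they need to develop, was at 1.16 ± 0.22 (adjusted p = 0.000759), and Wdfy4, needed for cross-presentation, at 1.20 ± 0.20 (adjusted p = 0.000317). Of 14 genes of mature dendritic cells 6 rose, and the count was 3 with treatment and day and 2 with the muscle score in the model. The 6 included Cd40, the receptor through which helper T cells license dendritic cells (1.01 ± 0.21, adjusted p = 0.00142). Of 7 genes of plasmacytoid dendritic cells 4 rose, and the other 3 had a negative fold change and did not pass. The list median was 1.79, and 0.33 with the muscle score in the model. Siglech, the surface lectin of plasmacytoid dendritic cells, had medians of 7.59 CPM in rich and 2.15 CPM in poor tumours (1.89 ± 0.35, adjusted p = 0.000745). Another of the 4, Cox6a2, is also a gene of striated muscle and moved with the muscle genes, at 215 CPM in the highest rich tumour.

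Myeloid genes were also higher in T cell rich tumours. Of 16 macrophage genes 12 rose and none fell, with a median of 0.90, with 12 passing with treatment and day in the model and 6 with the muscle score. Adgre1, which encodes the macrophage marker F4/80, had 64.8, 167 and 289 CPM in T cell rich tumours and 60.4, 78.8 and 93.8 CPM in T cell poor tumours (1.14 ± 0.19, adjusted p = 0.000269). C1qa, a chain of complement C1q made by tissue macrophages, had medians of 698 CPM in rich and 359 CPM in poor tumours (0.96 ± 0.16, adjusted p = 0.000314). The 4 macrophage genes that did not pass, Mrc1, Cd163, Folr2 and Lyve1, mark resident or repair-type macrophages in textbook schemes, and were at 0.40, 0.27, 0.22 and -0.71. Of 12 monocyte genes 6 rose, 4 and 2 passed with treatment and day and with the muscle score in the model, and 3 did without anti-PD-1 day 5 replicate 3 or combination day 5 replicate 3. Ly6c2, the marker of inflammatory monocytes, had medians of 131 CPM in rich and 45.3 CPM in poor tumours (1.51 ± 0.35, adjusted p = 0.00339).

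Neutrophil genes showed some of the widest differences among blood cell genes. Of 10 measured genes 8 rose, with a median of 1.55. The muscle score in the model left 3, and the 11 libraries with lung transcripts gave 4. Cxcr2, the receptor that brings neutrophils out of blood, had 1.79, 18.02 and 69.3 CPM in T cell rich tumours and 0.826, 3.25 and 9.99 CPM in T cell poor tumours (2.64 ± 0.52, adjusted p = 0.00117). All rich tumours but EPAT day 2 replicate 2 exceeded every poor tumour. S100a8, a subunit of calprotectin, had medians of 60.4 CPM in rich and 7.36 CPM in poor tumours (2.56 ± 0.57, adjusted p = 0.00274). The granule genes of immature neutrophils in the list, Ngp, Ltf and Camp, did not pass the count filter. Mmp9, which tumour and stromal cells also make, was at -0.82 ± 0.52 and did not pass. Mast cell genes rose in 5 of 7 cases, 3 with treatment and day and 0 with the muscle score in the model. With anti-PD-1 day 5 replicate 3 left out 1 of them passed, and 3 passed without combination day 2 replicate 3, combination day 5 replicate 3, vehicle day 2 replicate 4 or vehicle day 5 replicate 3.

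**Figure D3:**
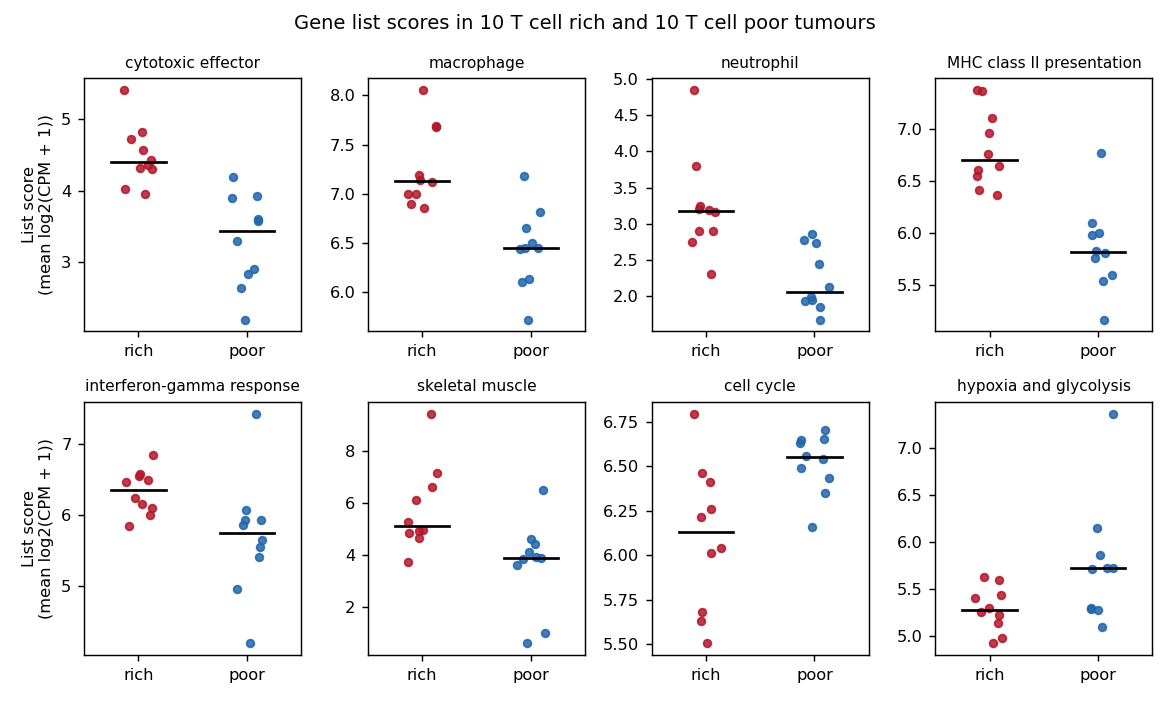
List score (mean log2(CPM + 1) of the list's genes, y axis) of each tumour for 8 gene lists, with the 10 T cell rich tumours left in red, the 10 T cell poor tumours right in blue, and medians as bars. The poor tumour at 7.44 in the interferon-gamma panel, the rich tumour at 9.44 in the muscle panel and the poor tumour at 7.36 in the hypoxia panel stand apart from their sets.

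B cell genes were scarce in both sets. Of 19 B and plasma cell genes 6 passed the count filter and all 6 rose, with a median of 1.44, and 3 passed with treatment and day or with the muscle score in the model. Genes that passed only through the set in which they are high had to differ, so that count carries little. Ighm, the heavy chain of IgM, had medians of 11.3 CPM in T cell rich and 4.90 CPM in T cell poor tumours (1.42 ± 0.25, adjusted p = 0.000454). Glycam1, a marker of high endothelial venules of lymph nodes, had 0.585, 1.23 and 8.20 CPM in rich against 0, 0.434 and 2.07 CPM in poor tumours and did not pass the filter. The library with the highest B cell score of the series, vehicle day 2 replicate 1 at 4.95, has rank 11 and is in neither set.

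Vessel and stroma genes were also higher in T cell rich tumours. Of 17 endothelial genes 12 rose (median 0.83), and 4 passed with the muscle score in the model or within the 11 libraries with lung transcripts. Icam1, the adhesion molecule on which T cells arrest, and which leukocytes carry too, had 33.1, 44.7 and 73.6 CPM in rich tumours and 7.70, 20.5 and 26.2 CPM in poor tumours, without overlap (1.31 ± 0.18, adjusted p = 8.11e-05). Pecam1, the endothelial junction protein CD31, had medians of 149 CPM in rich and 65.9 CPM in poor tumours (1.18 ± 0.20, adjusted p = 0.000419). Of 14 fibroblast and collagen genes 10 rose (median 0.96), while 4 did with the muscle score or with treatment and day in the model and 1 did within the libraries with lung transcripts. Lum, a collagen-binding proteoglycan, had medians of 153 CPM in rich and 48.9 CPM in poor tumours (1.75 ± 0.37, adjusted p = 0.00202). Ltbp2, a matrix protein that binds fibrillin and resembles the carriers of latent TGF-beta, had 3.50, 20.3 and 35.1 CPM in rich and 1.17, 2.75 and 9.91 CPM in poor tumours (2.35 ± 0.41, adjusted p = 0.000472), and it was 1 of the 3 genes that passed among libraries without lung transcripts. Of the 14 genes of the TGF-beta list 4 rose, among them Tgfb1 itself (0.65 ± 0.14, adjusted p = 0.00185), and 2 fell, Smad7 and Skil, a pair of feedback inhibitors of the pathway. Treatment and day in the model reduced these 6 calls to 2, and 0 were made within the libraries with lung transcripts. The fall of Smad7 and Skil was not stable: both calls ended without EPAT day 5 replicate 3, anti-PD-1 day 2 replicate 2, anti-PD-1 day 5 replicate 2 or 3, combination day 5 replicate 3 or vehicle day 5 replicate 1. Of the pair 1 call ended without anti-PD-1 day 5 replicate 4, combination day 2 replicate 1 or vehicle day 2 replicate 2.

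Skeletal muscle genes had the highest median of any list, 2.41, and 12 of 13 measured genes rose. Mb, which encodes myoglobin, had 3.13, 8.94 and 179 CPM in T cell rich tumours and 0, 1.87 and 13.5 CPM in T cell poor tumours (3.52 ± 0.84, adjusted p = 0.00425). The genes with the largest fold among called genes of mean log2 CPM of at least 1, outside the ranking and T cell receptor lists, included Myh3 and Myh8, the embryonic and perinatal myosins, at 5.48 ± 1.08 and 4.42 ± 0.82, and Actc1, cardiac actin, at 5.08 ± 0.98. Igf2, a growth factor of fetal tissue, followed at 3.91 ± 0.70, and Reg3g, a secreted antimicrobial lectin, at 3.69 ± 0.92. Myh3 had 0, 4.23 and 141 CPM in rich tumours against 0, 0.393 and 1.28 CPM in poor ones, and 8 rich tumours exceeded every poor one. The poor medians of Myh8 and Actc1 were 0.596 and 0.334 CPM. Myh3, Myh8 and Actc1 could pass the count filter mainly through rich tumours, so the rank of their folds carries little. The top-ranked tumour, anti-PD-1 day 5 replicate 4, held the highest muscle score of the series, 9.44. Without it 1 muscle gene passed and the median was 1.39, and 1 passed with treatment and day in the model, while Mb was at 2.44, Myh3 at 4.11 and Actc1 at 3.81.

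Fewer genes fell, and most by less. The 10 lower genes with the smallest p were Gata6, Cobll1, Zc3h14, Mex3d, Sipa1l3, Meis2, Rhou, Armcx1, Smad4 and Maff, at -1.25 to -0.38. Meis2, a homeobox factor, had 42.8, 66.9 and 87.2 CPM in T cell rich tumours and 94.5, 102 and 113 CPM in T cell poor tumours, without overlap (-0.64 ± 0.11, adjusted p = 0.000541). Gata6, a transcription factor of endoderm and mesoderm, had 3.69, 6.80 and 15.8 CPM in rich and 13.7, 17.1 and 22.8 CPM in poor tumours (-1.25 ± 0.21, adjusted p = 0.000301). Smad4, the shared mediator of TGF-beta and BMP signals, fell by 0.38 ± 0.07 (adjusted p = 0.000575). Maff, a small Maf factor induced by stress, had medians of 23.5 CPM in rich and 34.7 CPM in poor tumours without overlap (-0.83 ± 0.15, adjusted p = 0.000588). The 5 called genes that fell most were Aldh3a1, an aldehyde dehydrogenase (-1.76 ± 0.48), Syt8, a synaptotagmin (-1.55 ± 0.32), Ankrd37, Slitrk5, a transmembrane protein of neurons (-1.43 ± 0.44), and Ndp, which encodes norrin, a ligand of a Frizzled receptor (-1.41 ± 0.33).

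The remaining lists were small or mixed. Of 9 genes of naive and central memory T cells 5 rose, led by the gut-homing receptor Ccr9 at 1.98 ± 0.31 (adjusted p = 0.000187), while Tcf7, a factor of naive and stem-like T cells, fell by 0.79 ± 0.19 (adjusted p = 0.00485). Ccr9 is also in the plasmacytoid dendritic cell list and is counted there too. As genes of T cells, members of this list are not independent of the ranking. Of 8 measured genes of lymph node stroma and high endothelial venules 4 rose, led by the lymphocyte cytokine Ltb at 1.81 ± 0.30 (adjusted p = 0.000292). Ltb, as a gene of lymphocytes, is not independent of the ranking either. Of 6 adipocyte genes Lpl alone rose, which macrophages and muscle also express (1.87 ± 0.34, adjusted p = 0.000677). Of 8 lung epithelium genes Napsa alone rose (1.24 ± 0.21, adjusted p = 0.000365), and Sftpc was at -1.26 ± 0.95 and did not pass. Without vehicle day 5 replicate 5 the adipocyte count was 2, and without EPAT day 2 replicate 2 or combination day 5 replicate 4 the lung count was 2. None of 7 mitochondrially encoded genes passed.

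Genes of tumour cells were divided. Of 14 melanocyte lineage genes 3 were measured and the pigment genes Tyr, Dct, Pmel and Mlana were below the filter, with no library of either set above the 0.644 CPM that Pmel reached in a T cell rich tumour. Of the 3, 2 rose, and 1 passed with treatment and day or with the muscle score in the model. Mitf, the melanocyte master factor, was at 0.43 ± 0.13 (adjusted p = 0.0173), and Kit, the stem cell factor receptor that mast cells also carry, at 0.61 ± 0.20 (adjusted p = 0.0256). Kit did not pass without anti-PD-1 day 5 replicate 4 (0.54, adjusted p = 0.0573). Of 13 genes of dedifferentiated melanoma and neural crest 3 rose and 4 fell, and of these 7 calls 3 were made with treatment and day and 1 with the muscle score in the model. Tead1, a factor of the Hippo pathway, fell to a median of 184 CPM in T cell rich tumours, against 301 CPM in T cell poor tumours (-0.71 ± 0.14, adjusted p = 0.000798). Fosl1, an AP-1 factor of the invasive melanoma state, had 20.3, 46.2 and 69.6 CPM in rich and 56.0, 71.1 and 103 CPM in poor tumours (-0.77 ± 0.18, adjusted p = 0.00356). Sox9 and Axl, other genes of that state, were also lower, at -0.96 and -0.39. Egfr, Nes and Zeb2, which stroma, endothelium and myeloid cells express too, rose by 1.15, 0.81 and 0.52.

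Cell cycle genes were lower in T cell rich tumours by small amounts. Of 20 genes 19 had a negative fold change, with a median of -0.39, and 7 fell. Cdc20, the activator of the anaphase-promoting complex, had 42.7, 77.9 and 136 CPM in rich tumours and 76.1, 132 and 184 CPM in poor tumours (-0.63 ± 0.19, adjusted p = 0.0181). Bub1, a spindle checkpoint kinase, was at -0.67 ± 0.22 (adjusted p = 0.0227), and Mki67 at -0.36 did not pass. The count of 7 was unstable. With treatment and day in the model 0 passed, with the muscle score 1 did, and within the libraries with lung transcripts 0 did. It was 2 to 4 without any of 13 libraries, 11 without combination day 5 replicate 4 and 13 without EPAT day 2 replicate 2, and it kept within 1.5 times on leaving out combination day 2 replicates 1 and 2, combination day 5 replicate 1, EPAT day 5 replicate 5 or vehicle day 5 replicate 5.

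Hypoxia and glycolysis genes were lower as well. Of 18 genes 16 had a negative fold change, with a median of -0.54, and 11 fell. With the muscle score in the model 1 fell, with treatment and day 7 did, and within the libraries with lung transcripts 2 did. Cells short of oxygen stabilise HIF, which binds a short core sequence near such genes. Ankrd37, a HIF target of this list, had 2.01, 4.51 and 10.52 CPM in T cell rich tumours and 3.37, 11.98 and 46.4 CPM in T cell poor tumours (-1.53 ± 0.39, adjusted p = 0.00597), and every rich tumour lay below the poor median. Pgk1, a glycolytic kinase, had 2.32, 3.16 and 7.70 CPM in rich and 4.72, 8.30 and 19.8 CPM in poor tumours (-1.21 ± 0.28, adjusted p = 0.00299). Pdk1, which turns pyruvate away from mitochondria, was at -0.86 ± 0.21 (adjusted p = 0.00427), and Vegfa, the vessel growth factor, had medians of 73.7 CPM in rich and 119 CPM in poor tumours (-0.91 ± 0.25, adjusted p = 0.00962). The T cell poorest tumour, combination day 2 replicate 2, had a hypoxia score of 7.36, against 5.09 to 6.15 in the other poor tumours and 4.92 to 5.62 in the rich ones. Without it 5 of the 18 genes fell and the median was -0.37. The count was also 5 without combination day 5 replicate 3, and 7 without anti-PD-1 day 5 replicate 3 or anti-PD-1 day 5 replicate 4.

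The promoters of Ankrd37, the gene of the list that fell most, and of Pgk1, that of smallest p, show the HIF core ACGTG. This was searched on either strand of the 250 bases before each start. It was found in 11 of the 16 measured genes of the list that the RefSeq table holds, or 12 of their 23 promoters (52.2%), and in 16.6% of all 32851 promoters. The genes that fell and the list as a whole held it at nearly the same share of promoters, 53.3% for the 15 promoters of genes that fell. Both sequences are from GRCm38.p6, written 5′ to 3′ on the strand of the gene with each match in capitals: chr8:45999851-46000100, minus strand, and chrX:106186850-106187099, plus strand. A match is a description of the letters, not a binding site.
Ankrd37: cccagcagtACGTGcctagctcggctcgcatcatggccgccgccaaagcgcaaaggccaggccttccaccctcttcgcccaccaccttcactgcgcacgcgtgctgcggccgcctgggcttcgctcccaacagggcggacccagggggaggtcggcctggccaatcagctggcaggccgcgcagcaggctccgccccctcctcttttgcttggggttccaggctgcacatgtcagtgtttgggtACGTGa
Pgk1: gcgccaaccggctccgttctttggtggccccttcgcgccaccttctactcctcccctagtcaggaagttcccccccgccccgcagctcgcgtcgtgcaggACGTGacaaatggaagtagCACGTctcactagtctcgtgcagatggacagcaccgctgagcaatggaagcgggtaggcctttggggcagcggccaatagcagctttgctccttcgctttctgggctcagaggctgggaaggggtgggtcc

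Prostaglandin E2 genes did not move as a list. Of 10 measured genes 2 rose and 2 fell, with a median of -0.12, where 17.8% of all genes rose and 12.6% fell. Of the 4 calls 2 were made with treatment and day or with the muscle score in the model. Ptger4, which encodes EP4 (chromosome 15, 5206661 to 5244187 of GRCm38, minus strand), had 15.3, 30.6 and 48.5 CPM in T cell rich tumours and 8.42, 13.2 and 17.4 CPM in T cell poor tumours (1.29 ± 0.17, adjusted p = 6.81e-05). All rich tumours but 1 exceeded every poor tumour, and the call held with treatment and day in the model (adjusted p = 0.00388). T cells carry EP4 too, so the rise of Ptger4 is not independent of the ranking. Ptger2, which encodes EP2, was lower in level, with 0.447, 1.98 and 4.66 CPM in rich and 0.256, 1.09 and 3.12 CPM in poor tumours, and it did not pass (0.72 ± 0.39, adjusted p = 0.158). Hpgd, the enzyme that breaks prostaglandin E2 down, had medians of 6.71 CPM in rich and 1.65 CPM in poor tumours (1.90 ± 0.46, adjusted p = 0.00488). Ptgs2, which encodes the inducible cyclooxygenase COX-2, had 24.4, 53.5 and 110 CPM in rich and 41.0, 74.0 and 311 CPM in poor tumours and did not pass (-0.86 ± 0.37, adjusted p = 0.0807), although it did without combination day 2 replicate 3 (-0.96, adjusted p = 0.0495). The synthases Ptges and Ptges3 fell by 0.45 ± 0.14 (adjusted p = 0.0219) and 0.39 ± 0.10 (adjusted p = 0.00689).

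**Figure D4:**
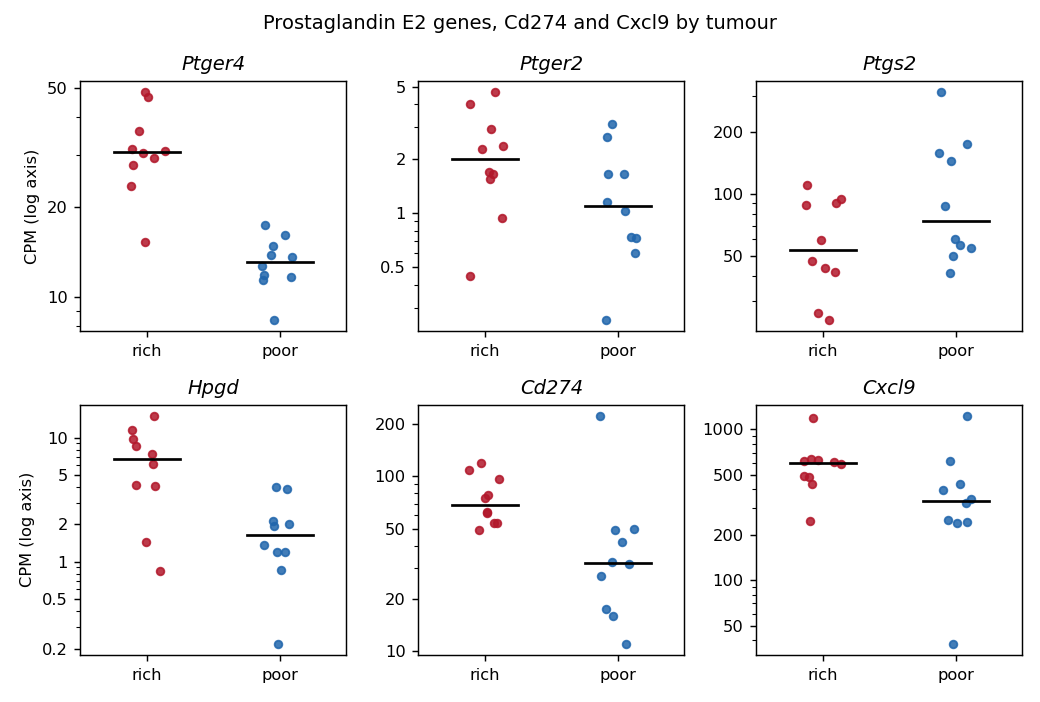
CPM (log axes) of 4 prostaglandin E2 genes and 2 interferon-induced genes in each tumour, with the 10 T cell rich tumours left in red, the 10 T cell poor tumours right in blue, and medians as bars. Ptger4 separates the sets but for 1 tumour, while Cd274 and Cxcl9 have 1 poor tumour at 221 and 1222 CPM, above all rich tumours.

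Genes of tumour-promoting inflammation split in the same manner. Of 15 measured genes 3 rose, Tnf, Il1b and Cxcl5, and 2 fell, Vegfa and Ptges, with 3 calls of the 5 under treatment and day and 2 under the muscle score. Both counts are near the shares of all genes, 17.8% higher and 12.6% lower. Tnf ran from 11.05 to 26.5 CPM in T cell rich tumours and from 2.20 to 16.96 CPM in T cell poor tumours (1.16 ± 0.25, adjusted p = 0.00214), and Il1b had medians of 186 CPM in rich and 107 CPM in poor tumours (1.11 ± 0.29, adjusted p = 0.00725). The count of rising genes was 5 without combination day 2 replicate 2. Arg1, the arginase of suppressive myeloid cells, had 8.53, 36.1 and 66.2 CPM in rich and 7.44, 23.9 and 427 CPM in poor tumours (-0.91 ± 0.63, adjusted p = 0.282), and its sign turned to 0.29 without combination day 2 replicate 2. Nos2, the inducible nitric oxide synthase, was at -0.05 ± 0.48 (adjusted p = 0.943).

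The 19 tumours between the sets were chosen by neither end of the ranking, and give a comparison in libraries that the sets do not share. In them each gene's slope on the T cell score was fitted, in log2 units per unit of score over scores of 3.49 to 4.41. Of 14251 genes 19 passed with a positive slope (0.133%) and none with a negative one (0%), while 699 positive and 366 negative slopes had an unadjusted p under 0.05 with edgeR. The 19 included Gimap8, Il21r, Lat and Tbc1d10c. Of the 19, 3 belong to the T cell receptor list, whose genes mark the cells that the score measures. Others, such as Ms4a4b, Skap1 and Prkcq, may be expressed by those cells too. A positive slope here is therefore not independent of the score. Leaving out the ranking gene Cd3d, which is part of the score, 17 of the other 18 were also higher in T cell rich than in T cell poor tumours. Glycam1 was not tested between the sets. Without vehicle day 2 replicate 1, the tumour of highest B cell score, Ctsw and Nkg7 were the 2 genes that passed, both cytotoxic granule genes, with slopes of 1.34 ± 0.22 and 1.34 ± 0.19 (adjusted p = 0.0365 and 0.00711). With treatment and day in the model 3 genes passed, Gimap8 and Lat among them.

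On that same score, the ends and the middle shared a direction for most genes. Of 2423 genes higher in T cell rich tumours, the ranking genes left out, 1943 had a positive slope in the middle tumours (80.2%), and of 1732 lower genes 1406 had a negative slope (81.2%), where 48.1% of all 13687 genes fitted in both had a positive and 51.9% a negative one. Without vehicle day 2 replicate 1 these shares were 82.8% and 87.1%. Genes of the same cells vary together, so these shares do not count separate observations. Slopes were positive for all 19 cytotoxic genes (median 1.07), 15 of 16 MHC class I genes (0.45), 19 of 22 interferon-gamma genes (0.45) and 13 of 16 macrophage genes (0.19). Most cytotoxic genes are expressed by T cells themselves, so their slopes are not independent of the score. Cell cycle slopes were negative for 19 of 20 genes (-0.32). Hypoxia genes had no shared direction in the middle, with 10 of 18 slopes positive and a median of 0.02. All 13 skeletal muscle genes had a negative slope, with a median of -1.54 and of -0.81 without vehicle day 2 replicate 1, against their rise at the ends. The B cell list (2.89) and the adipocyte list (2.33) had the steepest median slopes, and without that tumour these were 0.21 and -0.46. Ptger4 had a slope of 0.28 (unadjusted p = 0.43 with edgeR).

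**Figure D5:**
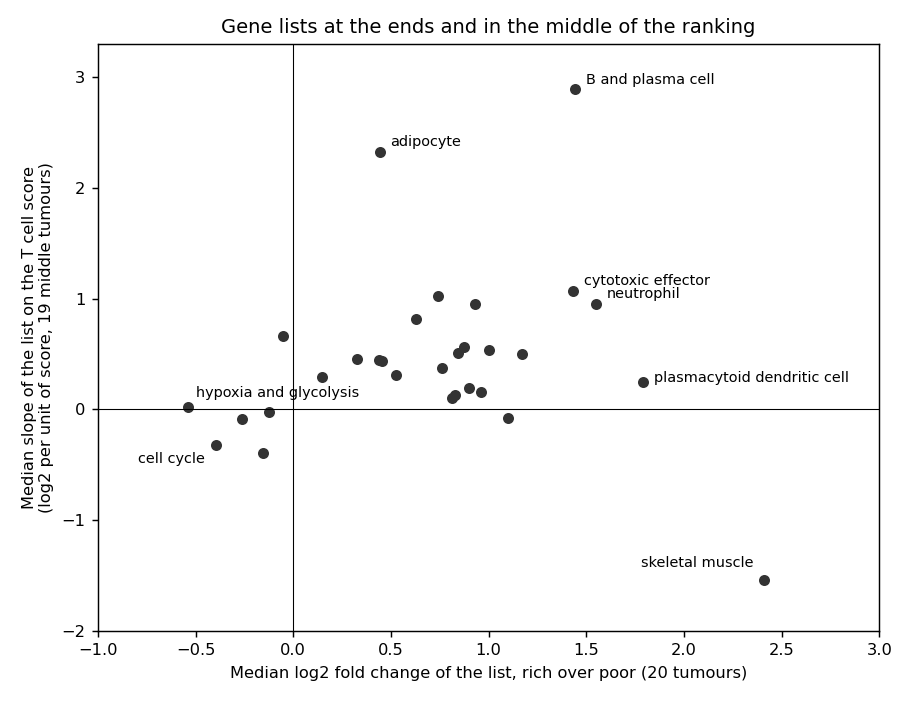
Median log2 fold change of each gene list in T cell rich over T cell poor tumours (x axis) against the median slope of its genes on the T cell score in the 19 middle tumours (y axis, log2 per unit of score); each point is a list with at least 6 measured genes. Skeletal muscle lies at 2.41 and -1.54, with opposite signs, and cell cycle lies below 0 on both axes.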

How the data were processed

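RNA of bulk tumours was sequenced from the 3′ end of transcripts (Lexogen QuantSeq), per the labels' protocols. The authors deposited whole-number read counts per Ensembl gene for 39 libraries, and a table of log2 values. After 1 constant per library the deposited log2 values match log2(count + 0.5) to within 5e-09, and they were used only for that check. Reads were processed with bcl2fastq, STAR, featureCounts and limma against mm10 (GRCm38), per the submitters' processing notes. Versions and strand setting were not given in the sources available, so overlapping genes cannot be told apart. No 2 libraries of a group agreed within sampling noise (lowest chi-square per gene 10.09).

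CPM used the column total. Genes were filtered with filterByExpr (minimum count 10, minimum total 15), scaled by TMM and tested with edgeR 4.0.16 (quasi-likelihood, R 4.3.3) on the 20 libraries, with Benjamini-Hochberg adjustment over all 13707 genes. The 19 middle libraries were fitted with the score as a slope. Alternatives used DESeq2 1.42.0 and limma 3.58.1. The code was tested on simulated data.

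The sets, ranking genes and gene lists were chosen with earlier results of these data known. Named genes are the 10 of smallest p and the 5 of largest fold in each direction among called genes with a mean log2 CPM of at least 1 outside the ranking and T cell receptor lists, the leading members of each list by smallest p whether called or not, and a fixed set of 15 genes of interest. Other genes were named after their values were seen. Total counts were 8385741 to 15558113 with a median of 12193825. CPM values below 1 rest on few reads.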

Additional observations from a re-analysis of the deposited data

Results flagged for a closer look

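Within each set of 10 tumours, 43 of 356 sets of values had a highest or lowest library whose gap to its neighbour exceeded Dixon's critical value. Chance gives about 1 in 20, and values of one library are not independent. Combination day 2 replicate 2 and combination day 2 replicate 3, both T cell poor, account for 11 each.

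Combination day 2 replicate 3 was the highest T cell poor tumour for interferon-induced and MHC genes. It had 283.9 CPM of Irf8, 91.18 CPM of Gbp8, 179.3 CPM of Irf9, 308.1 CPM of Tap1, 221.2 CPM of Cd274, 855.4 CPM of H2-Eb1 and 956 CPM of Cd74. Its type I interferon list score was 6.612 and its MHC class I score 7.248, where the other poor tumours reached 5.27 and 6.234. It was lowest for Pdgfra, a fibroblast receptor, at 28.44 CPM and for Cyp2f2 at 0.4387 CPM.

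Combination day 2 replicate 2 was the lowest T cell poor tumour for T cell and recruitment genes, with a T cell score of 1.119, a T cell receptor list score of 1.333, and 1.926 CPM of Lck, 1.101 CPM of Pdcd1, 1.284 CPM of Cxcr6, 56.78 CPM of Cxcl16 and 37.98 CPM of Cxcl9. It was highest for hypoxia (list score 7.361), fibroblast genes (8.186), Vegfa (240.6 CPM) and Ednrb (44.86 CPM).

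Combination day 5 replicate 1 was the lowest T cell rich tumour for H2-Q7 (37.77 CPM), Ms4a6c (114.7 CPM), Gzmb (8.828 CPM), Krt10 (0.447 CPM), mt-Cytb (1436 CPM) and the MHC class I score (5.485). Anti-PD-1 day 5 replicate 3 was the highest rich tumour for Il2ra (42.69 CPM), Cyp2f2 (22.21 CPM), the monocyte score (6.867) and the lymph node stroma score (2.821).

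Keratinocyte scores of 2.706 in rich combination day 5 replicate 3 and 3.275 in poor vehicle day 2 replicate 2 stood apart. Those libraries also had the highest Lpl of the rich set (484.4 CPM) and, in vehicle day 2 replicate 2, the highest Krt10 (29.58 CPM) and lowest Icam1 (7.696 CPM) of the poor set. EPAT day 2 replicate 2 had the lowest Cxcr2 of the rich set (1.785 CPM). In the poor set Actc1 was highest in vehicle day 5 replicate 1 (2.472 CPM), Rhou lowest in EPAT day 5 replicate 3 (76.56 CPM), and Glycam1 highest in anti-PD-1 day 5 replicate 2 (2.065 CPM). Vehicle day 5 replicate 5 had the highest B cell score (1.279) and the lowest mitochondrially encoded score (8.177) of that set.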

How the results depend on the processing

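Counts of called genes moved by over 1.5 times under these alternatives. The 4169 genes called became 1537 within libraries with lung transcripts, 3 within libraries without them, 1701 with the muscle score and 2284 with treatment and day as covariates, and 2659 without the highest keratinocyte library of each set, an alternative chosen after seeing the data. Genes higher in T cell rich tumours (2437) became 1231, 3, 1062 and 1437 under the first 4 of these. Genes lower in them (1732) became 306, 0, 639 and 847, with 1114 for a lung covariate, 2608 for a slope over all libraries and 885 without the keratinocyte libraries. The 19 genes of the middle tumours became 3 with treatment and day and 2 without vehicle day 2 replicate 1.

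Among named genes that did not pass, signs turned for Plin4 (-0.45) and Fabp4 (-0.091) with the muscle score, and for Cxcl9 (-0.28), Cd274 (-0.21), Ptgs2 (0.20) and Ptger2 (-0.13) within libraries without lung transcripts. The 3 T cell poor libraries without lung transcripts include combination day 2 replicate 3, the poor tumour of highest Cxcl9 and Cd274. Ednrb was at 0.31 in day 5 libraries, 0.16 with lung transcripts, 0.029 with limma, 0.0026 ranked on TMM-scaled CPM and 0.021 with treatment and day, and -0.082 to 0.21 leaving out each library. Arg1 was at 0.28 with DESeq2, 1.14 in day 5 libraries, 1.09 with lung transcripts, 0.020 with treatment and day, and -1.03 to 0.29 leaving out each library. Nos2 was at 0.014 with 13 and 0.23 with 8 libraries in a set, 1.34 in day 5 libraries, 0.18 with limma, 0.51 with the muscle score, 0.25 on the TMM ranking, 0.051 as a slope over all libraries, 0.57 with treatment and day, and -0.39 to 0.24 leaving out each library. Leaving out each library gave 3322 to 4757 called genes. Throughout, 119 named genes kept their result, whether called or not called, while for 19 a call was lost or gained or an uncalled value changed sign. Day 2 libraries alone were not run, since the T cell rich set holds 2 of them, and no library of either set was removed by the B cell score limit.

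Of 138 named genes 38 lost their call within libraries with lung transcripts, 120 within those without, 28 with the muscle score and 21 with treatment and day. The cause was not tested, though the lung splits also hold fewer samples. Of the 4169 calls, DESeq2 kept 4165. No paired analysis was possible because replicate numbers were given in accession order and only name samples.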
